A study of Mus musculus with 6 samples.

Results

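Axon guidance ligands and receptors are the secreted, membrane-bound and cell-surface proteins of the semaphorin, netrin, ephrin and Slit systems, with their plexin, neuropilin, DCC, UNC5, Eph and ROBO receptors. They were taken here by gene symbol, from probe sets that carry a single symbol: all semaphorins, plexins A to D, both neuropilins, the numbered EphA, EphB, ephrin-A and ephrin-B genes, the Slits, Robos, Unc5a to Unc5d, the numbered netrins and Dcc. This gave 68 genes on 151 probe sets, of 18193 named genes on the array, and 35 of the 68 encode ligands and 33 receptors. A gene was tested when a probe set of it exceeded log2 4 on 3 or more of the 6 arrays. That held for 33 of the 68 genes and not for the other 35.

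The study sorted bone marrow of 3 tamoxifen-fed Grem1;TdTomato mice on a C57BL/6J background, aged 6 to 8 weeks, into 2 fractions, and hybridised each fraction of each mouse to an Affymetrix array. The Grem1+ fraction is described only as sorted for Grem1, the gene of the BMP antagonist Gremlin 1. The Grem1- fraction was non-recombined and negative for CD45, CD31 and Ter-119, which mark blood, endothelial and erythroid cells, and this gate is stated for it alone. All mice carried the reporter and received tamoxifen, and both fractions came from the same animals. The comparison asks which transcripts set the Grem1+ fraction apart from the Grem1- fraction.

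These families were named for steering growing axons. Semaphorins signal through plexins, class 3 semaphorins usually with a neuropilin as the binding subunit; netrins attract through DCC or neogenin and repel through UNC5 receptors; ephrins are bound to the membrane, so that Eph receptors read contact between neighbouring cells; Slits repel through ROBO receptors. The same proteins act outside the nervous system, and in the skeleton several take part in the exchange between bone-forming and bone-resorbing cells, among them semaphorin 4D with plexin B1 and ephrin B2 with EphB4.

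Some facts of the arrays bear on every result that follows. Grem1 itself stood at 3.69, 3.75 and 3.70 in the Grem1- fraction and at 4.49, 4.14 and 8.61 in Grem1+ of mice 1, 2 and 3, and its rise of 2.04 (SE 1.04) was short of the threshold (limma adjusted p = 0.248). Of 12 pan-haematopoietic markers 9 were lower in Grem1+ and none was higher, with list medians of 10.61 to 11.10 in Grem1- and 6.32 to 7.87 in Grem1+, and only Cd48 was below log2 4 on all Grem1+ arrays. Ptprc, the gene of CD45, stood at 12.13, 11.78 and 12.37 in the Grem1- fraction despite its gate. In Grem1+, Ptprc stood at 7.29, 9.61 and 10.56 for mice 1, 2 and 3. Its difference of -2.94 was short of the threshold (limma adjusted p = 0.0609). Of 8 erythroid markers 6 were tested and 4 were lower. Medians of this list by mouse were 8.40, 9.64 and 7.81 in Grem1-, against 3.71, 3.50 and 3.55 in the Grem1+ fraction. Of 11 chondrocyte markers 10 were higher in Grem1+ and none was lower, with medians of 7.0 to 8.01 and 11.13 to 11.55. Of 7 osteoblast markers 5 were on the array, and 4 of these were higher. Of 9 endothelial markers 4 (Cdh5, Kdr, Emcn and Tie1) were below log2 4 on all 6 arrays and 3 were tested, of which 0 passed. Pecam1, the gene of CD31, stood at 5.25, 4.23 and 4.91 in Grem1- despite the gate and at 3.71, 3.39 and 2.81 in Grem1+ (difference -1.50, limma adjusted p = 0.0587). Of 9 neuronal markers 7, among them Snap25, Nefl and Stmn2, were below log2 4 on all arrays, and of the 2 tested, 1 was higher in Grem1+, Map2. Schwann cell markers (4 of 7 on the array) had medians of 5.33 to 5.94 in Grem1- and 4.01 to 4.95 in Grem1+, and 0 of 3 tested passed. The Gapdh control's 3' minus 5' signal, a measure of RNA length, was 2.31 to 2.99 in Grem1- and 2.98 to 3.88 in Grem1+. That of the actin control showed no such shift, at 0.15 to 0.17 in Grem1- and -0.03 to 0.17 in Grem1+. The part of these markers and of RNA length in the differences given here was not tested. All animals are recorded as male, but Xist was at 11.04 and 10.60 on the arrays of mouse 3 and at most 2.99 on the other 4. Eif2s3y, a gene of the Y chromosome, was at 3.08 and 3.42 on those of mouse 3 with its brighter probe set, and at 7.98 to 11.27 on the other 4. Values without mouse 3 are therefore given where they change the call of a guidance gene. The same holds for those partner genes that were refitted singly: the 8 largest differences past the threshold and the lower ones.

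Sequence is shown for the starts of 4 genes, the 3 with the largest positive differences among those that passed the test and whose start RefSeq's promoter table (build GRCm38.p6) holds, and the single gene with the largest negative one, so that the genes that moved furthest can be set beside one another. Each run is the 250 bases before the annotated start, 5' to 3' on the gene's strand, and capitals mark matches on either strand to the motif AACAAT, a core that SOX proteins bind, to a further SOX core spelled ACAAAG, to the GC box GGGCGG, to the TATA box TATAAA and to the PU.1 core GAGGAAGT. No letters of these motifs overlapped in the windows shown.
Unc5c (chr3:141465314-141465563, plus strand): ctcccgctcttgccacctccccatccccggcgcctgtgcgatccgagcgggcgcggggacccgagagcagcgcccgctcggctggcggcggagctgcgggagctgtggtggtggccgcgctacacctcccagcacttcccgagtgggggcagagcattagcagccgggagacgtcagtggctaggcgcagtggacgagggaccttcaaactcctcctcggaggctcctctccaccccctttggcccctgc
Efnb2 (chr8:8661243-8661492, minus strand): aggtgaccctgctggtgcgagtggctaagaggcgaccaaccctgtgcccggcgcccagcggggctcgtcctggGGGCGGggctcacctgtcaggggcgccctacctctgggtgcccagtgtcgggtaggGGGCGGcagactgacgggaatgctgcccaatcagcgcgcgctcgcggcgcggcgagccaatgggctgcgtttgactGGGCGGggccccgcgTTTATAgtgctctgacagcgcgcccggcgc
Sema3d (chr5:12382916-12383165, plus strand): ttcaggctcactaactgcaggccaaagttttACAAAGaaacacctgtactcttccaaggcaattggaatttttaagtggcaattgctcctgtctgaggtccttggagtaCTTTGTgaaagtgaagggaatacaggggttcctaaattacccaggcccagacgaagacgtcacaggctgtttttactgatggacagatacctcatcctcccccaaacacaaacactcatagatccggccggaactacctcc
Plxnc1 (chr10:94944846-94945095, minus strand): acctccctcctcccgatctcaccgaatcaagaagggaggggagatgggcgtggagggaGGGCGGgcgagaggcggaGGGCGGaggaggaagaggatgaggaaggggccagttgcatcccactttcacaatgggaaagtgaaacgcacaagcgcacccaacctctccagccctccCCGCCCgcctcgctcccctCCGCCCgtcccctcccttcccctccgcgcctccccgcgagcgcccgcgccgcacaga
The 4 windows differ in kind. Those of Unc5c, Efnb2 and Plxnc1 are rich in G and C, at 71.2%, 72% and 68.8%, with 23, 27 and 22 CpG pairs, while that of Sema3d is at 46.8% with 4. Efnb2 has GC boxes 177, 121 and 45 bases before the start and a TATA box 30 bases before it. Sema3d has ACAAAG 219 and 141 bases before its start, Plxnc1 has 4 GC boxes, and Unc5c has none of the letters searched. Of the 68 genes 58 were in that table, with 74 start sites, and GGGCGG lay in 71.6% of their windows against 32.7% of all 32851 windows of this length. AACAAT lay in 4.05% against 9.42%, ACAAAG in 9.46% against 16.5%, TATAAA in 2.7% against 12.4%, and GAGGAAGT in 0 of 74 against 2.44%. The median window of the families held 15 CpG pairs, and the median of all windows 6. A match is a description of the letters in this window and not a measured binding site.

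Most genes of these families that passed the test were higher in Grem1+. Of the 33 tested, 11 were higher in Grem1+, where 11.7% of all 10151 genes tested were higher, and 2 were lower, where 8.51% of all genes were (20.2% in either direction). The 11 are the ligands Sema3d, Sema4c, Sema7a, Ntn1, Ntn4, Efna1 and Efnb2 and the receptors Nrp1, Plxnb1, Unc5b and Unc5c. The 2 lower genes are Sema4d and Plxnc1. The median difference over the 33 was 1.05 on the log2 scale and that over all genes tested was 0.04. Of the 33 genes 6 passed the filter with no Grem1- array above log2 4, and 0 with no Grem1+ array above it; a gene that enters through Grem1+ alone has to be higher there, so these counts describe the families and are no evidence about them as a group. By role, 7 of 17 tested ligands were higher and 1 lower, and 4 of 16 tested receptors were higher and 1 lower. The 2 groups of arrays did not overlap for 18 genes with Grem1+ on top, where 23.2% of all genes did so, and for 2 with Grem1+ below, where 19.8% did. Differences here are Grem1+ minus Grem1- from limma with the mouse as a block, and a gene passed when its p, after Benjamini-Hochberg adjustment across the 10151 genes, was under 0.05. In a fit with no block, 10 were higher and 1 lower without mouse 1, 7 and 0 without mouse 2, and 8 and 1 without mouse 3. The 10 include Robo1 and Sema4f, which were not called with all mice. Over all 10151 genes these fits called 1274, 1186 and 1294 in either direction. The blocked limma fit on each pair of mice called 0 genes, where 14 to 17 of the 33 had an unadjusted p under 0.05. With all mice, 20 of the 33 and 3666 of the 10151 genes had an unadjusted p under 0.05. That count over all genes was not taken for the pairs.

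**Figure D1:**
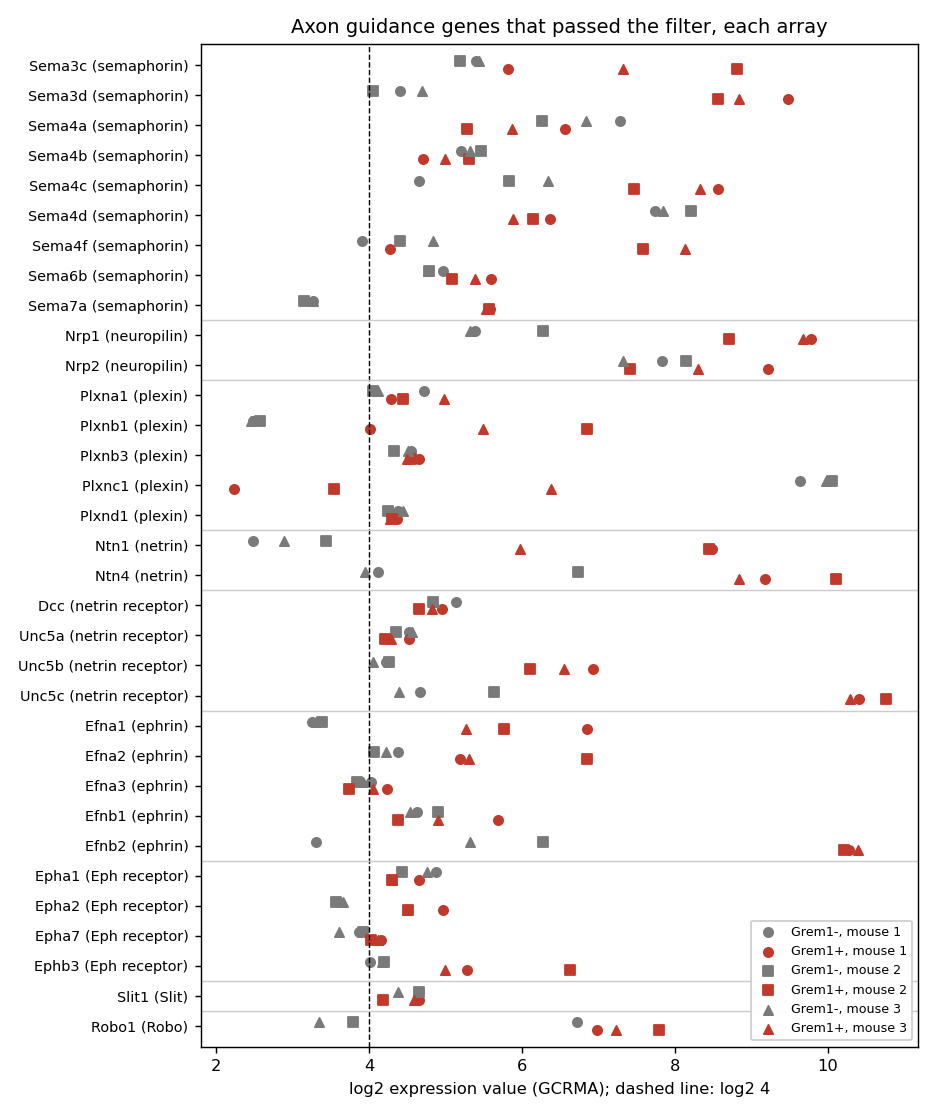
Log2 expression value (horizontal axis) of the 33 tested axon guidance genes on each of the 6 arrays, grey for Grem1- and red for Grem1+, with a marker shape for each mouse and a dashed line at log2 4. Unc5c, Efnb2, Sema3d and Nrp1 separate widely to the right in Grem1+, Plxnc1 separates to the left, and Dcc, Unc5a, Plxnb3, Plxnd1 and Slit1 lie together near log2 4 to 5.14 in both fractions.

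Among class 3 semaphorins, the secreted ligands, Sema3d was the gene that passed. It stood at 4.40, 4.05 and 4.70 in the Grem1- fraction of mice 1, 2 and 3 and at 9.48, 8.56 and 8.84 in Grem1+. Every Grem1+ array lay above every Grem1- array by a wide margin, and the difference of 4.58 (SE 0.31, limma adjusted p = 0.00906) is 23.9-fold. Its other probe set showed the same separation, at 2.90, 3.08 and 3.32 against 10.36, 9.46 and 9.61. Sema3c, a related ligand, stood at 5.39, 5.19 and 5.44 in Grem1- and at 5.81, 8.81 and 7.32 in Grem1+. The Grem1+ arrays were all higher but spread widely, with mouse 1 barely above its partner, and the difference of 1.97 (95% interval 0.07 to 3.88) did not pass (limma adjusted p = 0.129). Its second probe set, at 3.64, 3.29 and 4.24 against 6.62, 7.48 and 6.72, differed by 3.22 and passed when chosen as the most variable (limma adjusted p = 0.0199), as did the mean of both (2.60, adjusted p = 0.0254).

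The other class 3 genes did not enter the test, and for these and all later genes that were not tested the values are those of the brightest probe set. Sema3a, which repels axons through neuropilin 1, was at most 3.05 on any array with the brightest of its 3 probe sets, and Sema3f was at most 3.94. Sema3e was at 2.85, 2.36 and 2.95 in Grem1- and at 5.66, 5.52 and 3.27 in Grem1+, so that 2 arrays of Grem1+ were above log2 4 and the third was not. Sema3b reached 4.70 on 1 Grem1+ array. Sema3g ran the other way, at 4.49, 6.82 and 2.76 in Grem1- and at most 3.44 in Grem1+.

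Of the tested receptors of class 3 semaphorins, Nrp1 passed the threshold and Nrp2, Plxna1 and Plxnd1 did not. Nrp1, the neuropilin that also binds VEGF, stood at 5.39, 6.28 and 5.32 in Grem1- and at 9.78, 8.70 and 9.67 in Grem1+. The groups did not overlap, and the difference was 3.72 (SE 0.52, limma adjusted p = 0.0207), 13.2-fold. All 4 of its probe sets passed the filter and were higher, by 2.16 to 5.15. Nrp2, the other neuropilin, stood at 7.83, 8.14 and 7.32 in Grem1- and at 9.21, 7.42 and 8.30 in Grem1+. These values overlapped, and the difference of 0.54 had a 95% interval from -0.87 to 1.96 (limma adjusted p = 0.517). Another Nrp2 probe set that passed the filter differed by 0.87, and those that did not pass it differed by 1.56 and 2.35. By mouse, Nrp1 differed by 4.39, 2.43 and 4.35 and Nrp2 by 1.38, -0.72 and 0.98, and whether the genes differ from each other in this was not tested. Of the plexins that pair with neuropilins, Plxna1 stood at 4.05 to 4.72 in Grem1- and 4.29 to 4.98 in Grem1+ (difference 0.28, 95% interval -0.72 to 1.28), and Plxnd1 at 4.24 to 4.45 and 4.28 to 4.36 (-0.04, -0.74 to 0.65). Both lay just above log2 4 in all arrays, with groups that overlapped. Plxna2, Plxna3 and Plxna4 were not tested: Plxna2 reached 5.28 on 1 Grem1+ array and 4.34 on 1 Grem1- array, and Plxna3 and Plxna4 stayed below log2 4. Other probe sets of Plxna2 reached 4.29 on the Grem1+ array of mouse 1 and 4.86 on that of mouse 3.

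Semaphorins of class 4 are membrane ligands, several of them known from immune cells, and they went both ways. Sema4c stood at 4.66, 5.83 and 6.34 in Grem1- and at 8.56, 7.47 and 8.32 in Grem1+. The groups did not overlap, and the difference of 2.51 (SE 0.55) lay just within the threshold (limma adjusted p = 0.0493). It missed the threshold in 7 of 19 alternatives, a number that here and later leaves out the blocked fits on pairs of mice, among them without mouse 1, 2 or 3 and no block (adjusted p = 0.0821, 0.0724 and 0.0661). Sema4d, the ligand of plexin B1 that restrains osteoblasts, stood at 7.74, 8.21 and 7.85 in Grem1- and at 6.37, 6.15 and 5.88 in Grem1+. Every Grem1+ array was below every Grem1- array, and the difference was -1.80 (SE 0.29, limma adjusted p = 0.0267). Without mouse 2 or 3 and without the block Sema4d missed the threshold (-1.67, adjusted p = 0.0561, and -1.72, adjusted p = 0.0661). Its 2 other probe sets did not pass the filter and differed by -0.52 and 0.35.

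Sema4a, another immune semaphorin, stood at 7.28, 6.26 and 6.84 in Grem1- and at 6.56, 5.28 and 5.87 in Grem1+. It was lower in Grem1+ within each mouse, though the groups overlapped, and the difference of -0.89 (95% interval -1.59 to -0.18) did not pass (limma adjusted p = 0.0871). Sema4b, at 5.21 to 5.46 and 4.70 to 5.31, differed by -0.33 and its other passing probe set by 0.27. Sema4f stood at 3.90, 4.40 and 4.84 in Grem1- and at 4.27, 7.58 and 8.13 in Grem1+. Mice 2 and 3 were far apart and mouse 1 was not, and the difference of 2.28 did not pass (limma adjusted p = 0.103), but it passed without mouse 1 and without the block (3.23, adjusted p = 0.0222). Sema4g was above log2 4 on 1 Grem1+ array only, at 5.06.

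Of the receptors of class 4 semaphorins, Plxnb1 was higher and Cd72 lower. Plxnb1, the high-affinity receptor of Sema4d, was below log2 4 on all Grem1- arrays, at 2.48, 2.58 and 2.45, and stood at 4.01, 6.85 and 5.49 in Grem1+. Mouse 1 was at the limit itself and mouse 2 far above it. With values below log2 4 set to 4, Plxnb1 was at least 2.73-fold higher, while the measured difference was 2.94 (SE 0.61, limma adjusted p = 0.0433). The call was lost in 8 of 16 alternatives, among them with that floor (adjusted p = 0.192), with no filter on dim probe sets (0.099) and without mouse 2 or 3 and no block (2.28, adjusted p = 0.0945, and 2.90, adjusted p = 0.152), and its other probe set differed by 0.79. Cd72, a B cell receptor of Sema4d, fell by 1.66 (SE 0.31, limma adjusted p = 0.0354) and missed the threshold in 9 of 18 alternatives, among them without mouse 2 or 3 and the block (adjusted p = 0.111 and 0.156). Of 7 B lineage markers 5 were tested and 3 were lower (Cd79b, Ebf1 and Vpreb1), with list medians of 5.09 to 6.51 in Grem1- and 3.76 to 3.98 in Grem1+. Plxnb2 was below log2 4 on all arrays, and Plxnb3 stood at 4.32 to 4.55 and 4.5 to 4.65 and differed by 0.11 (95% interval -0.59 to 0.81).

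Sema7a and Plxnc1 are a ligand and receptor that moved in opposite directions. Sema7a, a GPI-anchored semaphorin that also binds beta 1 integrin, was below log2 4 on all Grem1- arrays, at 3.26, 3.15 and 3.27, and stood at 5.59, 5.56 and 5.53 in Grem1+. The Grem1+ arrays were nearly equal, Sema7a was at least 2.95-fold higher, and the measured difference was 2.33 (SE 0.25, limma adjusted p = 0.0146). Its other probe set did not pass the filter, with 1 array above log2 4, and differed by 0.47. Plxnc1, the plexin that Sema7a binds and that is known from myeloid cells, stood at 9.64, 10.05 and 9.98 in Grem1- and at 2.23, 3.54 and 6.37 in Grem1+. All Grem1+ arrays were lower, but mouse 3 kept a clear signal and mice 1 and 2 were below log2 4. The difference was -5.84 (SE 0.84, limma adjusted p = 0.0220), or -5.10 with values below log2 4 set to 4. Its 5 other probe sets were lower too in the mean, by 0.92 to 4.35 on the log2 scale. Of these, 1 that passed the filter overlapped, at 4.33, 4.56 and 5.08 in Grem1- and 5.24, 2.90 and 2.62 in Grem1+. With the floor at log2 4 that probe set differed by -0.24. The Plxnc1 call was lost without mouse 1 or 2 and the block (adjusted p = 0.0501 and 0.102) and with no filter on dim probe sets (adjusted p = 0.0577). Granulocyte markers, 6 of 9 of them lower, had medians of 10.92 to 11.28 in Grem1- and of 6.97, 8.59 and 9.12 in Grem1+ of mice 1, 2 and 3. In sorted bulk samples, fewer cells of a type and less RNA per cell cannot be told apart, and the part of blood cells in the values of Plxnc1, Sema4d, Sema4a and Cd72 was not tested. Itgb1, the gene of beta 1 integrin, was higher by 1.43 (SE 0.28, limma adjusted p = 0.0390).

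Class 5 and 6 semaphorins, which are membrane ligands, were mostly dim. Sema6b stood at 4.97, 4.79 and 4.77 in Grem1- and at 5.59, 5.09 and 5.38 in Grem1+, so the groups did not overlap, but the difference of 0.51 (95% interval -0.20 to 1.23) did not pass. Sema5a was at 7.77 on the Grem1+ array of mouse 2 and at most 2.88 on the other 5 arrays, while another of its probe sets was above log2 4 on the Grem1+ array of mouse 3 alone, at 4.8. Sema6a was above log2 4 on the Grem1+ arrays of mice 1 and 3, at 5.39 and 4.5. Its other probe sets reached 4.69 and 4.01 on the Grem1+ array of mouse 2. None of its 3 probe sets was above log2 4 on a Grem1- array. Sema6d was at 5.45 on the Grem1- array of mouse 1 and below log2 4 on the others, and Sema5b and Sema6c were at most 4.07 and 4.03.

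**Figure D2:**
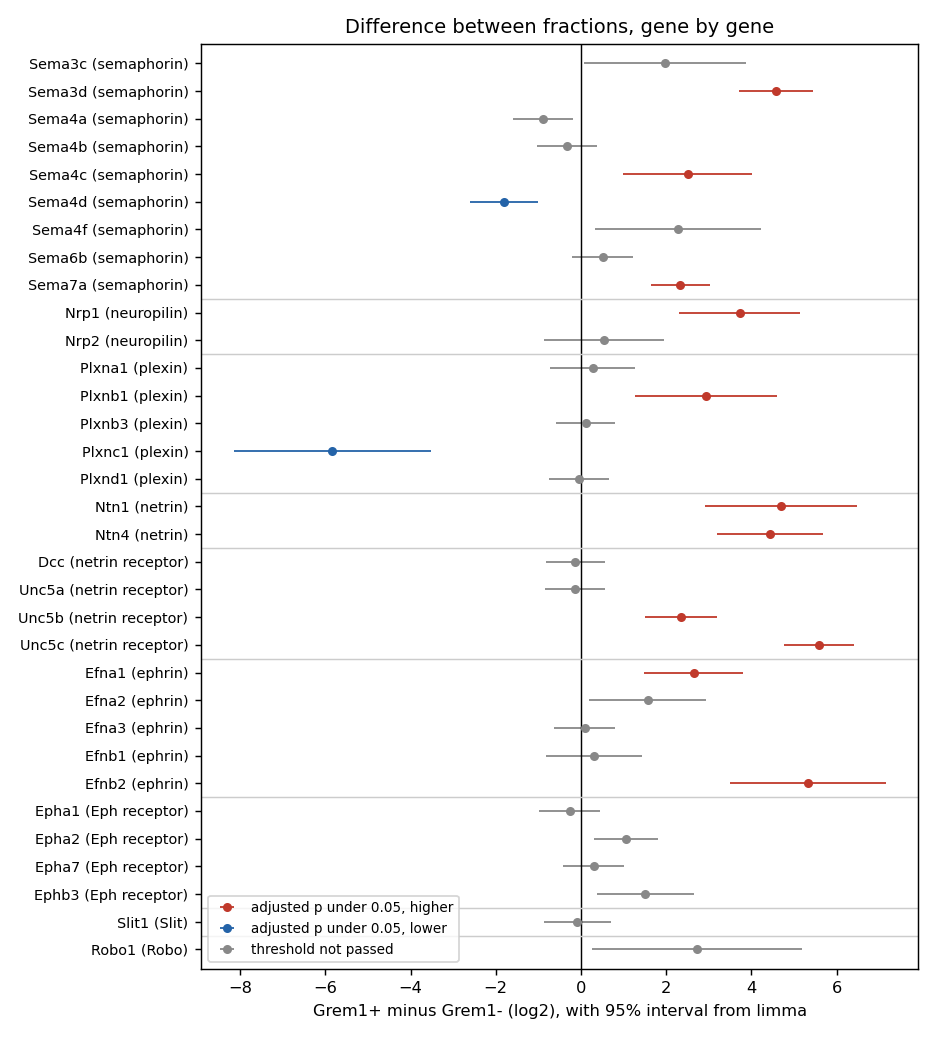
Difference between Grem1+ and Grem1- (log2, horizontal axis) of the 33 tested axon guidance genes with its 95% interval from limma, red for genes that passed the threshold and were higher, blue for those lower, grey for the rest. Unc5c at 5.59 and Plxnc1 at -5.84 are the furthest from 0 in each direction, and several grey intervals, such as those of Robo1, Sema3c and Sema4f, also lie above 0.

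Netrins and their receptors held some of the widest separations. Ntn1, the founding netrin, was below log2 4 on all Grem1- arrays, at 2.49, 3.43 and 2.89, and stood at 8.48, 8.45 and 5.97 in Grem1+. Mouse 3 was lower than the others but still far above every Grem1- array, Ntn1 was at least 12.4-fold higher, and the measured difference was 4.70 (SE 0.65, limma adjusted p = 0.0204). This rests on 1 probe set, since the other was at 2.80 to 3.64 on all 6 arrays and differed by -0.04, and the call was lost without mouse 1 or 2 and the block (adjusted p = 0.0642 and 0.0625) and with no filter on dim probe sets (0.0518). Ntn4, a netrin that binds laminins of basement membranes, stood at 4.12, 6.74 and 3.94 in Grem1- and at 9.18, 10.11 and 8.84 in Grem1+. Mouse 2 was the highest in both fractions, the groups did not overlap, and the difference was 4.44 (SE 0.45, limma adjusted p = 0.0133), 4.42 with the floor at log2 4. Without mouse 1 or 3 and the block Ntn4 stood at 4.13 (adjusted p = 0.0863) and 4.21 (adjusted p = 0.0681). The other Ntn4 probe set did not pass the filter, at 3.56, 3.30 and 2.90 against 3.87, 6.44 and 4.90, and differed by 1.82. Ntn3 and Ntn5 were at most 2.54 and 3.28.

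Among the UNC5 receptors, Unc5c had the largest positive difference of all 33 tested genes. It stood at 4.67, 5.63 and 4.39 in Grem1- and at 10.41, 10.76 and 10.29 in Grem1+. The Grem1+ arrays lay close together and far above the highest Grem1- array, and the difference of 5.59 (SE 0.30, limma adjusted p = 0.00906) is 48.2-fold. Its second probe set, at 1.71, 2.25 and 3.01 against 6.07, 7.80 and 7.10, differed by 4.66. Unc5b stood at 4.23, 4.26 and 4.05 in Grem1- and at 6.93, 6.10 and 6.55 in Grem1+, without overlap, and the difference was 2.35 (SE 0.31, limma adjusted p = 0.0187). Its other probe set was above log2 4 on 1 array only and differed by 0.79. Unc5a stood at 4.35 to 4.56 and 4.20 to 4.52 (difference -0.14, 95% interval -0.84 to 0.56), and Unc5d was at most 2.25. Dcc, the attractive netrin receptor, stood at 5.14, 4.84 and 4.85 in Grem1- and at 4.95, 4.65 and 4.82 in Grem1+, which overlapped (difference -0.14, 95% interval -0.83 to 0.56), and its 2 other probe sets were at most 2.46. Neo1, the gene of neogenin, a relative of DCC that also binds repulsive guidance molecules, belongs to the partner list. It stood at 5.45, 4.89 and 5.84 in Grem1- and at 12.17, 11.99 and 12.21 in Grem1+, a difference of 6.73 (SE 0.29, limma adjusted p = 0.00906).

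Of 8 ephrins 5 were tested, and 2 of these, Efnb2 and Efna1, were higher. Efnb2, a transmembrane ephrin, stood at 3.31, 6.27 and 5.31 in Grem1- and at 10.27, 10.20 and 10.39 in Grem1+. The Grem1+ arrays were close together while the Grem1- arrays spread widely, all of them below Grem1+, and the difference was 5.32 (SE 0.67, limma adjusted p = 0.0176), or 5.09 with the floor. All 4 of its probe sets passed the filter and were higher, by 1.38 to 6.20. Efnb1 stood at 4.62, 4.91 and 4.54 in Grem1- and at 5.69, 4.37 and 4.91 in Grem1+, with overlap (difference 0.30, 95% interval -0.82 to 1.42). Its other passing probe set did not overlap, at 3.68, 3.41 and 3.48 against 4.28, 4.22 and 4.98. That one differed by 0.97 and did not pass the threshold when used (limma adjusted p = 0.112). Efnb3 was above log2 4 on 1 Grem1+ array only, at 5.64. Efna1, a GPI-anchored ephrin, was below log2 4 on all Grem1- arrays, at 3.26, 3.38 and 3.31, and stood at 6.85, 5.76 and 5.27 in Grem1+. It was at least 3.89-fold higher, with a measured difference of 2.64 (SE 0.42, limma adjusted p = 0.0261), and its call was lost without mouse 2 and the block (2.77, adjusted p = 0.0718) and with no filter on dim probe sets (0.0558). Its other probe set reached 4.19 on 1 Grem1+ array and differed by 0.55. Efna2 stood at 4.38, 4.06 and 4.22 in Grem1- and at 5.19, 6.85 and 5.31 in Grem1+, without overlap, but the difference of 1.57 (95% interval 0.20 to 2.94) did not pass (limma adjusted p = 0.106). The other Efna2 probe set was at most 3.54 and differed by 0.08. Efna3 lay near log2 4, at 3.84 to 4.02 in Grem1- and 3.74 to 4.24 in Grem1+, and differed by 0.08 (95% interval -0.62 to 0.79). Efna5 reached 4.94 on 1 Grem1+ array, and Efna4 was at most 2.69.

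None of the Eph receptors passed the threshold: 4 of 13 were tested, and 2 of these had an unadjusted p under 0.05. Over all genes, 3666 of 10151 had one that low. Ephb2 is not among the 13, as no probe set carried it as a single symbol, so it was not assessed. Epha2, a main receptor of ephrin A1, stood at 3.59, 3.56 and 3.66 in Grem1- and at 4.97, 4.51 and 4.49 in Grem1+. The groups did not overlap, the difference was 1.05 (95% interval 0.30 to 1.81, limma adjusted p = 0.0707), and without the replicate block it passed (adjusted p = 0.0295). Ephb3 stood at 4.01, 4.20 and 4.17 in Grem1- and at 5.29, 6.63 and 5.0 in Grem1+, also without overlap, and the difference of 1.51 (95% interval 0.37 to 2.65) did not pass (limma adjusted p = 0.0780). Epha1 stood at 4.43 to 4.87 in Grem1- and 4.30 to 4.65 in Grem1+ and differed by -0.27 (95% interval -0.98 to 0.44). Its other probe sets did not pass the filter and differed by 0.48 and 0.33. Epha7 lay near log2 4, at 3.60 to 3.93 and 4.02 to 4.15, and differed by 0.30 (-0.42 to 1.02). The other Epha7 probe sets did not pass the filter and differed by -0.40, -0.80 and -0.13. Of the 9 receptors that were not tested, Epha3 was at 7.03 on the Grem1+ array of mouse 2 and at most 3.01 on the other 5 arrays of that probe set, and Epha4 was at 4.28 and 5.77 on the Grem1+ arrays of mice 1 and 2. Ephb4, the receptor best known for binding ephrin B2, was at 4.78 on the Grem1- array of mouse 3 and below log2 4 on the others. Epha5, Epha6, Epha8, Epha10, Ephb1 and Ephb6 were below log2 4 on every array. Sema5a, Epha3, Slit2 and Sema4g were highest on the Grem1+ array of mouse 2, each with that array alone above log2 4 on its brightest probe set. Other arrays stood alone in the same way. Efna5, Efnb3 and Sema3b had only the Grem1+ array of mouse 1 above log2 4 on that probe set. Sema6d had only the Grem1- array of mouse 1, and Ephb4, Sema5b and Sema6c only that of mouse 3.

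Slits and Robos were dim for the most part. Slit1 stood at 4.38 to 4.66 in Grem1- and 4.19 to 4.65 in Grem1+ and differed by -0.09 (95% interval -0.87 to 0.69). Slit2 was above log2 4 on the Grem1+ array of mouse 2 alone, at 4.73, and Slit3 was at most 3.86. Robo1 stood at 6.72, 3.78 and 3.34 in Grem1- and at 6.97, 7.79 and 7.23 in Grem1+. Mice 2 and 3 differed by 4.01 and 3.89 and mouse 1 by 0.26, so the difference of 2.72 did not pass (95% interval 0.26 to 5.18, limma adjusted p = 0.113). Without mouse 1 and without the block it passed at 3.95 (adjusted p = 0.0172). The other Robo1 probe sets were at most 2.35 and 2.82. Robo2, Robo3 and Robo4, the last known from endothelium, were at most 2.30, 3.79 and 2.48.

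**Figure D3:**
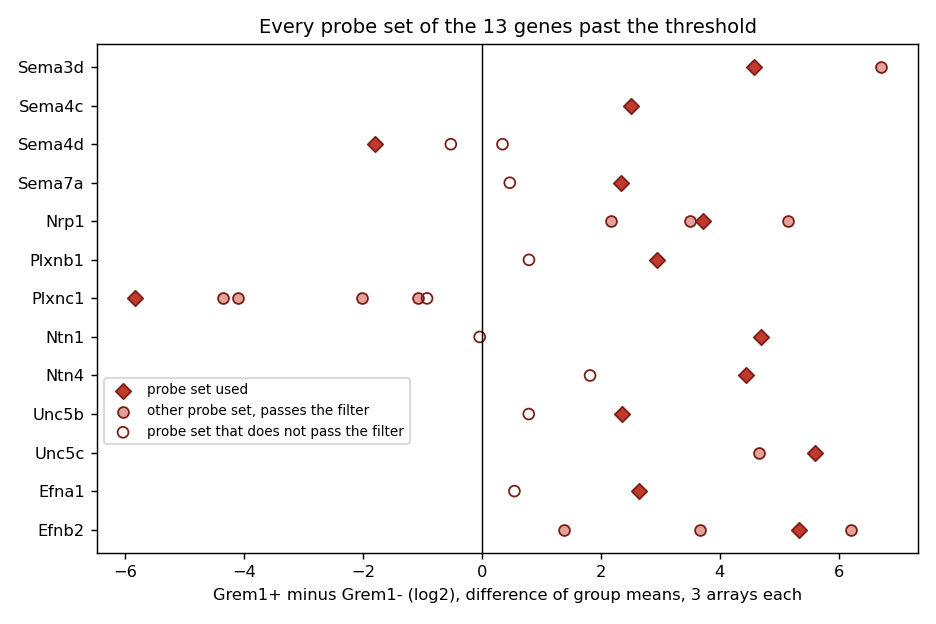
Difference of group means (Grem1+ minus Grem1-, log2, 3 arrays in each group) for every probe set of the 13 genes past the threshold, with a diamond for the probe set used, a filled circle for another that passed the filter and an open circle for one that did not. The 4 probe sets of Nrp1 and the 4 of Efnb2 all lie to the right of 0 and the 6 of Plxnc1 to the left, while the second probe set of Ntn1 lies at -0.04.

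Other genes of the same pathways were described from a list of 80 co-receptors, further ligands and cytoplasmic effectors, of which 55 were tested. Of these 15 were higher in Grem1+ and 4 lower, with a median difference of 0.70 against 0.04 over all genes, beside the backgrounds of 11.7% higher and 8.51% lower. Without mouse 1, 2 or 3 and the block, 10, 11 and 9 of them passed, where 1274, 1186 and 1294 of all 10151 genes did. Neo1 had the largest difference of the list. Pak3, a kinase downstream of Rac and Cdc42, was below log2 4 on all Grem1- arrays, at 3.59, 3.29 and 2.19, and stood at 9.60, 8.00 and 7.92 in Grem1+, at least 22.8-fold higher. Enah, the actin regulator Mena that works beneath Robo and netrin receptors, stood at 5.91, 8.61 and 4.88 against 10.94, 10.69 and 11.38 and differed by 4.53 (SE 0.94, limma adjusted p = 0.0439), but its call was lost in 4 of 19 alternatives: without mouse 1 or 3 and the block (adjusted p = 0.118 and 0.0942), without the Grem1- array of mouse 1 and the block (0.0572) and with no filter on dim probe sets (0.108). Its relative Vasp was lower, at 9.68, 9.62 and 9.52 against 8.17, 8.26 and 8.21 (difference -1.39, SE 0.25, limma adjusted p = 0.0335).

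Several effectors of plexins, Eph receptors and adhesion were also higher. Arhgef12, an exchange factor that binds plexin B proteins, differed by 3.42 (SE 0.45) and Rnd3, a small GTPase, by 3.35 (SE 0.33). Chl1, an L1-type adhesion molecule that works with neuropilin 1, differed by 3.19 (SE 0.37), and Gpc1, a heparan sulfate proteoglycan that binds Slits, by 3.08 (SE 0.40). Vav2, an exchange factor downstream of Eph receptors, differed by 2.38 (SE 0.29). The limma adjusted p-values of these 5 genes were at most 0.0187. Vav2 missed the threshold in 7 of 19 alternatives, among them without mouse 1, 2 or 3 and the block (adjusted p = 0.0717, 0.12 and 0.0541), and Arhgef12 did when probe sets open to matching other transcripts were left out (1.97, adjusted p = 0.117). Vegfa, which binds neuropilin 1, was higher by 1.87 (SE 0.26, adjusted p = 0.0212). Calls of Vegfa, Itgb1 and the adaptor Nck2 under the alternatives were not read out gene by gene.

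Nck1 and Nck2 are adaptors that link Eph and Robo receptors to actin. Nck1 stood at 8.25, 8.53 and 7.91 in Grem1- and at 7.02, 6.31 and 5.75 in Grem1+, and fell by 1.87 (SE 0.34, limma adjusted p = 0.0326). That call was lost in 7 of 19 alternatives, and without probe sets open to matching other transcripts the difference was -1.04 (adjusted p = 0.344). Nck2 stood at 7.41, 7.32 and 6.76 and at 9.85, 9.40 and 8.97, and was higher by 2.24 (SE 0.26, limma adjusted p = 0.0159). Adam10, the protease that cuts ephrins, was lower (difference -1.58, SE 0.29, limma adjusted p = 0.0347). Without mouse 1, 2 or 3 and without the block, Adam10 (adjusted p = 0.145, 0.0713 and 0.0925) and Vasp (adjusted p = 0.0732, 0.0586 and 0.08) missed the threshold, as did Nck1 without mouse 2 or 3 (adjusted p = 0.134 and 0.0823). The shared switch GTPases Rhoa, Rac1 and Cdc42 differed by -0.28, -0.21 and -0.35 and did not pass.

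**Figure D4:**
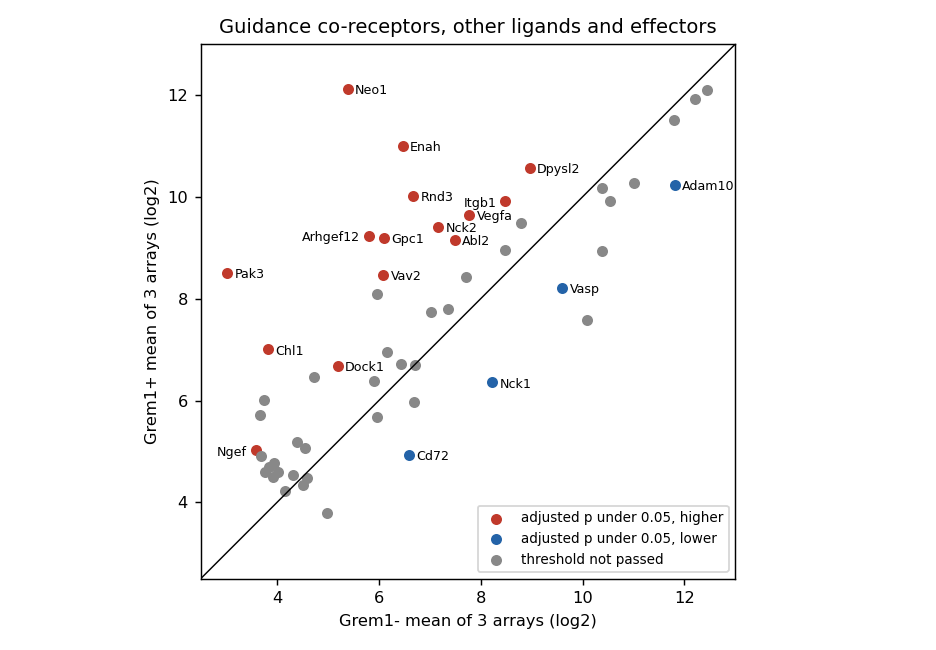
Mean log2 value in Grem1+ (vertical axis) against that in Grem1- (horizontal axis), each over 3 arrays, for the 55 tested co-receptors, other ligands and effectors, with the line of equal values, red for genes past the threshold and higher, blue for those lower. Neo1 lies furthest above the line at 12.12 against 5.39, and the 4 blue genes are Vasp, Adam10, Cd72 and Nck1.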

How the data were processed

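RNA of both sorted fractions of 3 mice was measured on 6 Affymetrix arrays. The authors' deposited table holds a log2 value for each probe set and array, made with GCRMA per the submitters' processing notes. No source used here states the GCRMA settings. Values from 0.80 to 14.05 show the log2 scale. Per the labels' protocols, RNA from the RNAqueous-Micro kit was amplified with the Ovation One-Direct System, and amplification can shift the balance between transcripts. Gene names came from GEO's platform annotation, leaving out 932 probe sets with several symbols and 9160 without any.

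Probe sets above log2 4 on at least 3 of 6 arrays were kept, with the brightest one for each gene, which left 10151 genes. This limit is a choice and was not measured. Where every array of the lower group was under it, a fold is a bound with those values set to log2 4. Group differences were tested with limma 3.58.1 (R 4.3.3) in a model with a term for the mouse, since the series design says the fractions are matched. Arrays of the same mouse deviated from their group means with correlations of 0.014, 0.074 and 0.046. High Xist on both arrays of mouse 3 sets them apart from the others, and beyond that the pairing rests on the series design. There were 2 residual and 2.10 prior degrees of freedom, and the number of arrays limits the precision. On simulated data of these 10151 genes, 50 genes were changed at each size. The fit recovered 0% of those changed by log2 1, 32% at 2, 94% at 4 and 98% at 6, with 7 false calls. In the measured data 2055 genes were called. Recovery with so large a share of changed genes was not simulated, so these rates are not those of the measured data. Alternatives were no block, other filters, other choices of probe set, other scalings, a floor, a variance trend and leaving out mice or arrays. The text names each gene past the threshold, each tested gene with its values, and of the partner list the 8 with the largest differences past the threshold and the lower ones. Dpysl2, Dock1, Abl2 and Ngef also passed there, and Neo1, Itgb1, Vegfa, Nck2, Rhoa, Rac1 and Cdc42 are named as partners of genes described. Under the alternatives, all of these except Neo1 were only counted within the list and not read out gene by gene. Members and lists were chosen with earlier results of these data known.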

Additional observations from a re-analysis of the deposited data

How the results depend on the processing

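Of the 13 guidance genes past the threshold, 6 (Efnb2, Nrp1, Sema3d, Sema7a, Unc5b and Unc5c) passed it in all 19 alternatives other than leaving out a mouse with the block kept, and 0 of the 13 changed sign in any. With the block kept and a mouse left out limma called 0 genes of any kind, while 14 to 17 of the 33 had an unadjusted p under 0.05. The matching count over all genes was taken only with all mice (3666 of 10151, beside 20 of the 33). Without mouse 1, 2 or 3 and with no block, 10, 7 and 8 guidance genes were higher and 1, 0 and 1 lower, and 10, 11 and 9 partners were called in either direction (8, 11 and 9 higher, and 2, 0 and 0 lower). Over all 10151 genes these fits called 1274, 1186 and 1294. The 10 higher guidance genes without mouse 1 include Robo1 and Sema4f, which were not called with all mice. Leaving out a single Grem1- array of mouse 1, 2 or 3 together with the block left 2, 1 and 2 lower partners, and 12 partners in all without that of mouse 3, and leaving out the Grem1+ array of mouse 2 and the block left 2 lower ones. With no filter on dim probe sets 7 guidance genes were higher and 1 lower, and 2 partners were lower. Without the replicate block 12 and 2 were called, Epha2 being added. Plxnb1 did not pass the stricter filter, or the usual one after quantile normalization or median subtraction. Of genes short of the threshold, Sema4b reversed to 0.27 with its most variable probe set. Leaving out a mouse gave -0.082 to 0.72 for Efnb1, -0.018 to 0.63 for Plxna1, -0.091 to 0.022 for Plxnd1 and -0.23 to 0.10 for Slit1. Leaving out a single array together with the block gave -0.030 for Efna3, -0.048 for Efnb1, 0.0049 for Plxnd1 and 0.056 for Slit1. The cause of these changes was not tested.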
